A study of Gossypium hirsutum with 7 samples.

Results

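KCS38, FatB1, SMT2-2 and LTP1 are cotton genes of lipid metabolism and lipid transport, followed here in whole Gossypium hirsutum ovules taken on the day of anthesis, 0 days post anthesis, when cotton fibres initiate from the outer cell layer. Their probe sets were taken from the array's gene annotation wherever a probe set had 1 annotated gene and that gene carried one of the 4 names in RefSeq. This gave 9 of the 23977 probe sets tested, 4 for KCS38 (LOC107925445), 2 for FatB1 (LOC107932873), 1 for SMT2-2 (LOC107905551) and 2 for LTP1 (LOC107896815). The last locus also carries the names FSLTP2, FSLTP3, LTP3 and GH3. Which lipid transfer protein copies its 2 probe sets read is not known. RNA was hybridised to 7 Affymetrix cotton arrays, 1 sample each: 2 of wild-type ovules, 2 of ovules from plants silenced for GhHD-1, a homeodomain gene, and 3 of ovules over-expressing it. The sources used here do not give the construct, its promoter or how many transgenic lines stand behind each group. All plants grew under 1 glasshouse regime, and the labels name no further treatment.

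These genes act at successive points of lipid supply to a growing cell surface. Fatty acids are made in the plastid, and FatB-type thioesterases release saturated ones, mainly palmitate, from their carrier protein; the RefSeq synonym of FatB1, PATE, names it as such an enzyme. Ketoacyl-CoA synthases such as KCS38 carry out the first step of each round of very-long-chain fatty acid elongation at the endoplasmic reticulum, which feeds cuticular wax and membrane lipids. Sterol methyltransferases of the SMT2 type direct sterol synthesis toward sitosterol, the main membrane sterol of plants, and lipid transfer proteins are small secreted proteins that bind lipids and are abundant in epidermal cells and cotton fibres. GhHD-1 belongs to a class of homeodomain factors that act in the plant epidermis. The arrays address which genes it may regulate as fibres initiate.

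The deposited values were log2 intensities per probe set, so 1 unit is a doubling of signal, and levels of different probe sets are not compared. The median of an array lay between 7.61 and 7.72, and 5% of probe sets lay below 3.50 to 3.67. All 9 probe sets were far above that floor on every array. The wild-type arrays differed more from each other (SD of their differences 0.49) than the silenced arrays did (0.20), and the over-expression pairs gave 0.26 to 0.43. Each wild-type array was closer to a transgenic one than to the other: replicate 1 to silenced replicate 1 (0.40), replicate 2 to over-expression replicates 3 and 1 (0.32 and 0.33). Wild type is thus the least uniform group, and most differences below rest on it. A reporter control probe set read 9.99 and 10.15 on the silenced arrays and 4.08 to 4.66 on the others. A second reporter, RPTR-Ghi-U57609-2_s_at, did not follow genotype: it read 5.09 and 11.88 in wild type, 9.73 and 9.84 in silenced ovules and 5.91, 8.59 and 8.81 in over-expressing ovules. The annotation used here names no probe set for GhHD-1 itself, whose level was not analysed here. Of the fibre markers, E6, HOX3 and EXPA1 gave signals between 8.11 and 10.90, while 1 of the 2 CelA1 probe sets lay near the floor at 3.51 to 4.51. The legumin LegA lay near the floor too, at 3.83 to 4.32. In RNA of whole ovules, fewer cells of a type and less RNA per cell cannot be told apart.

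KCS38 gave the largest positive difference of the 4 genes, at 1 of its 4 probe sets. Probe set Ghi.9938.1.S1_x_at read 8.03 and 8.14 in wild type, 8.30 and 8.39 in silenced ovules and 8.79, 8.59 and 9.02 in over-expressing ovules. The 3 groups did not overlap, and over-expression stood highest, with silenced ovules between it and wild type. The log2 difference of over-expression from wild type was 0.72 (95% interval 0.37 to 1.06), a 1.64-fold higher signal, with an adjusted p of 0.407 in limma's moderated test over all probe sets. Silenced ovules differed from wild type by 0.26 (-0.12 to 0.64, adjusted p = 0.483), in the same direction as over-expression. Over-expression stood 0.45 above silenced ovules (0.11 to 0.80, adjusted p = 0.290). When arrays were weighted by how closely they followed their group, that last difference was 0.55 with an adjusted p of 0.0446 in limma's moderated test. This was the one alternative under which a member passed. Both arrays of a group of 2 got the same weight, 0.46 in wild type and 1.81 in silenced ovules. The weights thus do not rate single arrays of those groups. Over-expression replicates 1, 2 and 3 got 1.03, 0.61 and 2.25. The largest of these went to replicate 3, which read highest of its group at this probe set, and the smallest to replicate 2, which read lowest. Array weights called 5.04% of all probe sets in this comparison, beside 0.0209% without weights. The ending _x_at marks a probe set with probes that can also read other sequences.

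The other KCS38 probe sets gave smaller differences, and one pointed the other way. Probe set Ghi.9531.1.S1_s_at, read 10.48 and 10.80 in wild type, 10.76 and 10.66 in silenced ovules and 11.05, 10.80 and 10.99 in over-expressing ovules. Over-expression overlapped wild type, because over-expression replicate 2 and wild-type replicate 2 held exactly the same value, but lay above both silenced arrays. Its differences were 0.30 (-0.03 to 0.63, adjusted p = 0.486) for over-expression against wild type and 0.23 (-0.09 to 0.56, adjusted p = 0.572) against silenced ovules. Dropping wild-type replicate 1 gave 0.14 for the first of these, and dropping replicate 2 gave 0.46. Probe set GhiAffx.2173.2.S1_at read 10.08 and 10.14 in wild type, 10.29 and 10.23 in silenced ovules and 10.43, 10.39 and 10.18 in over-expressing ovules. Both transgenic groups lay above wild type there and overlapped each other, with differences from wild type of 0.14 (-0.16 to 0.45) and 0.22 (-0.06 to 0.49) for silenced and over-expressing ovules (adjusted p = 0.618 and 0.522). Probe set GhiAffx.2173.1.A1_a_at read 10.36 and 10.45 in wild type, 10.29 and 10.47 in silenced ovules and 10.36, 10.11 and 10.36 in over-expressing ovules. All its groups overlapped, and its over-expression difference from wild type was -0.12 (-0.42 to 0.18, adjusted p = 0.711).

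Of the 4 KCS38 probe sets, 3 shared a direction in every comparison and GhiAffx.2173.1.A1_a_at had the opposite sign. Between pairs of them, Pearson's r over the 7 arrays ran from -0.53 to 0.84, given as a description of arrays that share their normalisation. The highest was between Ghi.9531.1.S1_s_at and Ghi.9938.1.S1_x_at, and the 3 negative values all involved GhiAffx.2173.1.A1_a_at. Measured within each array, the log2 signal of Ghi.9938.1.S1_x_at relative to GhiAffx.2173.1.A1_a_at was 0.84 higher in over-expression than in wild type, on all 3 arrays against both. The exact two-sided permutation test gave p = 0.2, the smallest that 3 arrays against 2 allow. Over 8 pairs of probe sets and 3 comparisons, which make 24 such tests, the smallest adjusted value was 0.533. In 14 of the 24 the arrays did not overlap, so such a separation was common among these pairs. With the probe sets of KCS38 averaged into 1 value, over-expression stood 0.28 above wild type (0.01 to 0.54, adjusted p = 0.467).

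**Figure D1:**
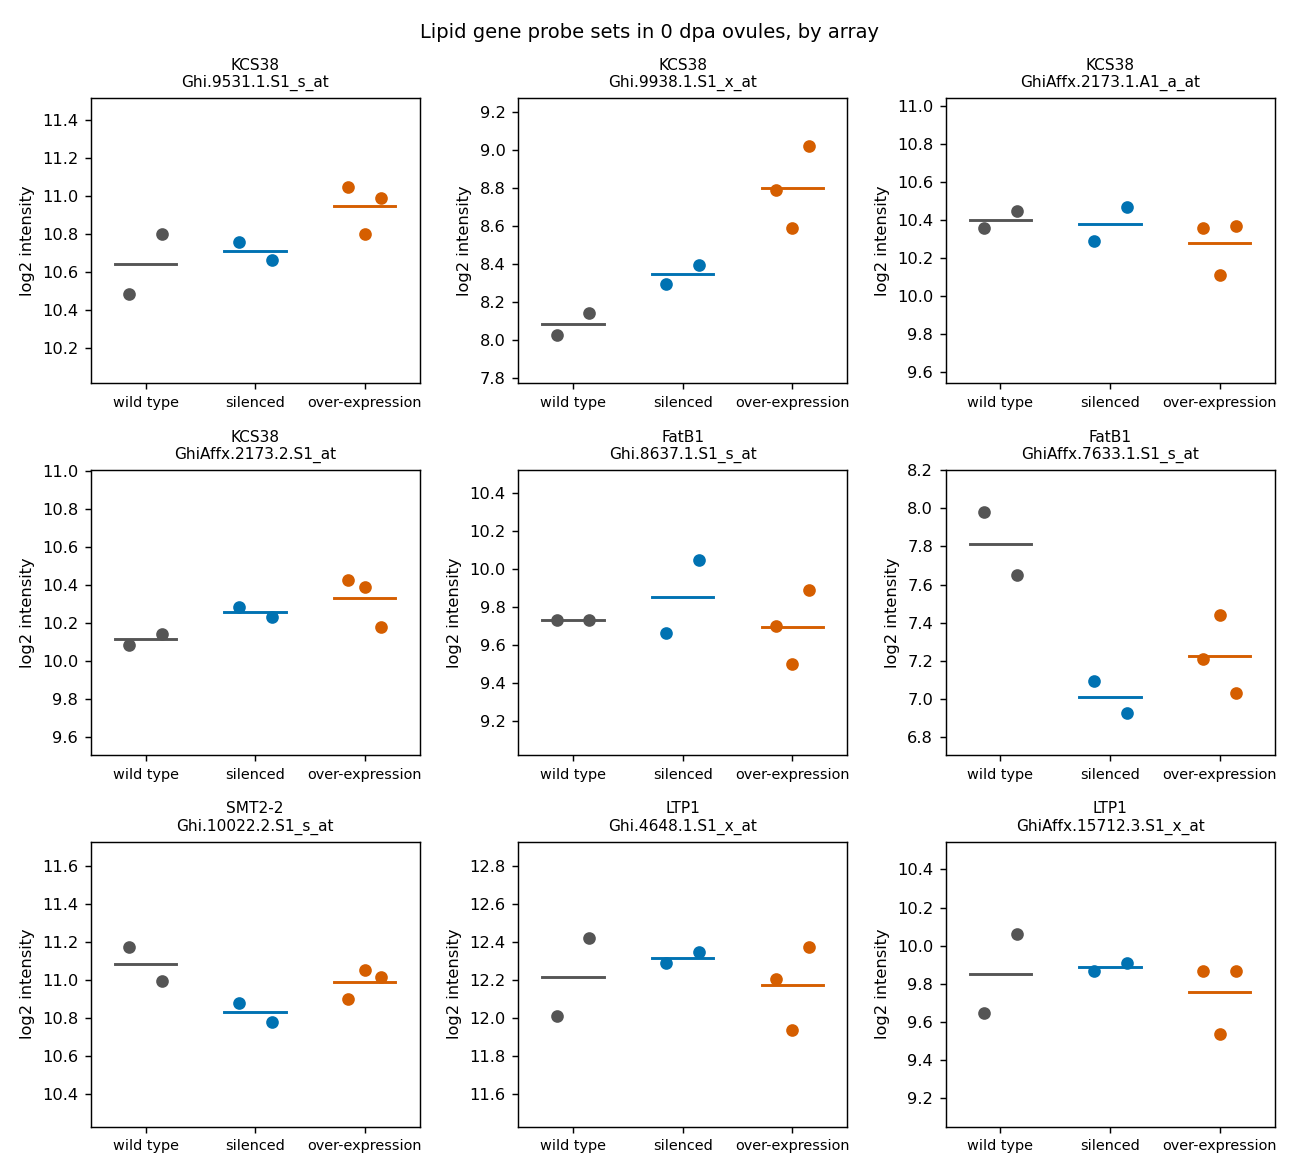
Log2 intensity (vertical axis, each panel spanning 1.5 log2 units) of the 9 probe sets of KCS38, FatB1, SMT2-2 and LTP1 in wild-type (2 arrays), silenced (2) and over-expression (3) ovules. Points are single arrays and lines are group means. At KCS38 Ghi.9938.1.S1_x_at the 3 groups stand apart, and at FatB1 GhiAffx.7633.1.S1_s_at both transgenic groups lie below wild type.

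FatB1 was the member with the largest negative difference, again at 1 probe set only. GhiAffx.7633.1.S1_s_at read 7.98 and 7.65 in wild type, 7.09 and 6.93 in silenced ovules and 7.21, 7.44 and 7.03 in over-expressing ovules. Every transgenic array lay below both wild-type arrays, and silenced and over-expressing ovules overlapped. Silenced ovules differed from wild type by -0.81 (-1.23 to -0.38, adjusted p = 0.175), a signal 0.572 times that of wild type. Over-expressing ovules differed by -0.59 (-0.98 to -0.20, adjusted p = 0.415). These comparisons share the wild-type arrays, and without wild-type replicate 1 the differences were -0.64 and -0.42, while without replicate 2 they were -0.97 and -0.75. The direct difference of over-expression from silenced ovules was 0.22 (-0.17 to 0.61, adjusted p = 0.674).

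The other FatB1 probe set, Ghi.8637.1.S1_s_at, did not follow it. It read 9.73 on both wild-type arrays, 9.66 and 10.04 in silenced ovules and 9.70, 9.50 and 9.89 in over-expressing ovules. All groups overlapped. Its differences from wild type were 0.12 (-0.30 to 0.55, adjusted p = 0.768) in silenced and -0.04 (-0.42 to 0.35, adjusted p = 0.940) in over-expressing ovules, and the second turned positive under median centring and array weights. The interval of the silenced difference lay above that of GhiAffx.7633.1.S1_s_at throughout. Within arrays, the 2 FatB1 probe sets drew apart by 0.93 between wild type and silenced ovules, with both silenced arrays above both wild-type arrays (exact two-sided permutation p = 0.333, the smallest that 2 against 2 allow). Arrays did not overlap in 14 of the 24 such tests over all pairs. Over the 7 arrays the 2 FatB1 probe sets correlated at r = -0.45. The wild-type values of Ghi.8637.1.S1_s_at were identical to the last deposited digit, so their SD of 0 is no measure of replicate spread. Such exact ties occurred in 34.3% of all probe sets, and in 96.2% of those the tied value was the median of the 7 arrays. Both FatB1 probe sets end in _s_at, which marks probes shared by several transcripts, so the copies of the A and D subgenomes may be mixed in each.

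**Figure D2:**
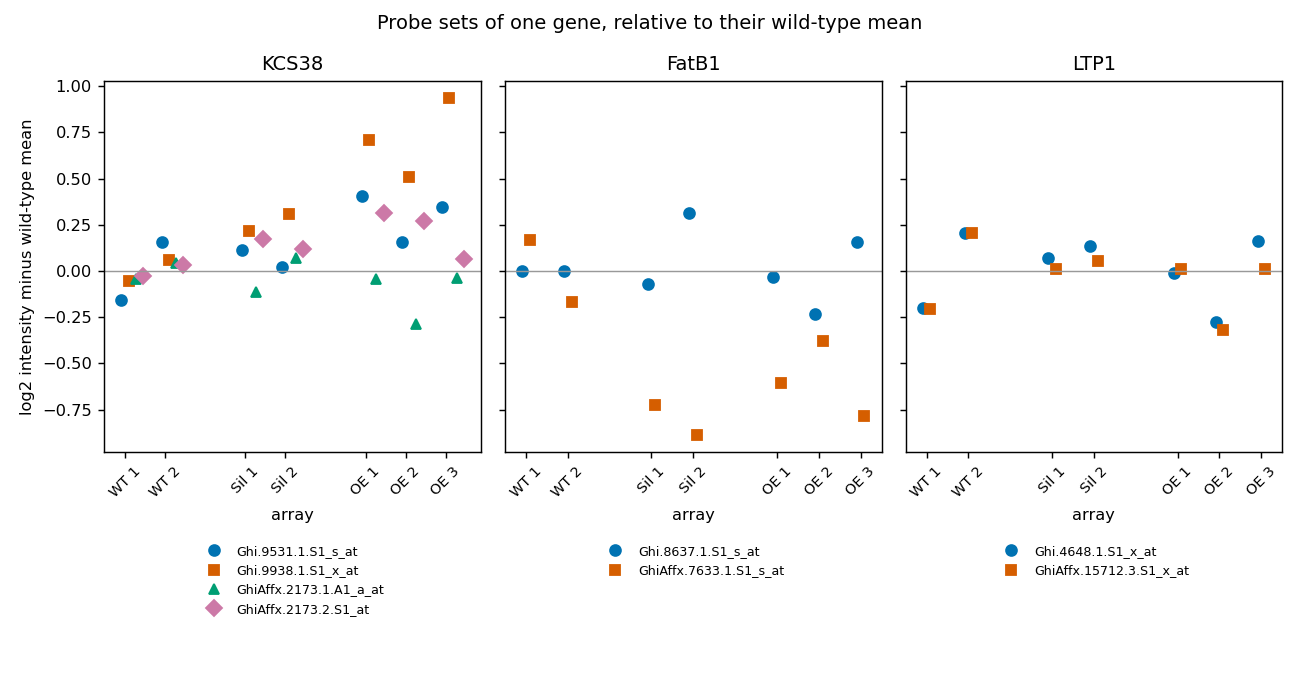
Log2 intensity of each probe set minus its own wild-type mean (vertical axis, log2 units) on each of the 7 arrays, for the 3 genes with more than 1 probe set. WT is wild type, Sil is silenced and OE is over-expression; each symbol is 1 probe set. The LTP1 symbols lie close together on every array, while the FatB1 symbols part widely on both silenced arrays and on over-expression replicates 1 and 3, less on replicate 2, and the KCS38 symbols part most in over-expression.

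SMT2-2, measured by Ghi.10022.2.S1_s_at alone, varied little. It read 11.18 and 11.00 in wild type, 10.88 and 10.78 in silenced ovules and 10.90, 11.05 and 11.02 in over-expressing ovules. Silenced ovules stood lowest and overlapped neither of the other groups, which overlapped each other. The silenced difference from wild type was -0.25 (-0.55 to 0.04, adjusted p = 0.399), -0.17 without wild-type replicate 1 and -0.34 without replicate 2. Over-expression differed from silenced ovules by 0.16 (-0.11 to 0.43, adjusted p = 0.652). Over-expression differed from wild type by -0.10 (-0.37 to 0.17, adjusted p = 0.747), and by -0.01 without wild-type replicate 1. The interval of that difference leaves out any change of 2-fold in either direction.

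LTP1 varied as much within groups as between them. Ghi.4648.1.S1_x_at read 12.01 and 12.42 in wild type, 12.29 and 12.35 in silenced ovules and 12.20, 11.94 and 12.37 in over-expressing ovules. GhiAffx.15712.3.S1_x_at read 9.65 and 10.06 in wild type, 9.86 and 9.91 in silenced ovules and 9.86, 9.53 and 9.87 in over-expressing ovules. At both probe sets the lowest over-expression array was replicate 2, wild-type replicate 1 lay 0.41 below replicate 2, and all groups overlapped.

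The group means of LTP1 stood in the order silenced, wild type, over-expression at both probe sets, with no neighbours apart. The silenced difference from wild type was 0.10 (-0.35 to 0.55, adjusted p = 0.824) at Ghi.4648.1.S1_x_at and 0.03 (-0.40 to 0.47, adjusted p = 0.944) at GhiAffx.15712.3.S1_x_at. Which wild-type array was kept set the direction. Without replicate 1 these differences were -0.10 and -0.17, and without replicate 2 they were 0.31 and 0.24. Over-expression differed from wild type by -0.04 (-0.46 to 0.37, adjusted p = 0.932) and -0.10 (-0.49 to 0.30, adjusted p = 0.830), and from silenced ovules by -0.15 and -0.13 (adjusted p = 0.808 and 0.821). The LTP1 probe sets followed each other closely over the 7 arrays (r = 0.95), unlike those of KCS38 and FatB1. Both LTP1 probe sets end in _x_at, so their probes can also read other sequences. The part of such probes in this agreement was not tested.

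Across the 3 comparisons, limma called none of the 9 probe sets at an adjusted p of 0.05. Over all 23977 probe sets it called 0% for silenced against wild type, 0.00417% for over-expression against wild type and 0.0209% for over-expression against silenced ovules (0.0167% higher and 0.00417% lower). At an unadjusted p of 0.05 the members numbered 1, 2 and 1 of 9 in these comparisons, beside 14.5%, 10.4% and 12.1% of all probe sets. The first was FatB1 GhiAffx.7633.1.S1_s_at, the second that probe set and KCS38 Ghi.9938.1.S1_x_at, and the third the KCS38 probe set again. Silenced and wild-type arrays did not overlap at 4 of the 9 members, 2 higher and 2 lower, beside 45.4% of all probe sets, 23.6% higher and 21.8% lower. Over-expression and wild-type arrays did not overlap at 3 members, 2 higher and 1 lower, beside 24.3% of all, 14.5% higher and 9.81% lower. Over-expression and silenced arrays did not overlap at 3 members, all higher, beside 33.9% of all, 17.8% higher and 16.1% lower. In direction alone, 6 members lay above and 3 below wild type in silenced ovules (52.3% and 47.6% of all), 3 above and 6 below in over-expression (53.5% and 46.5%), and 5 above and 4 below in over-expression against silenced ovules (52.9% and 47.1%). The members' median differences were 0.07, -0.04 and 0.07, beside 0.02, 0.02 and 0.01 over all probe sets. At the extremes, the silenced difference of FatB1 GhiAffx.7633.1.S1_s_at was larger in size than that of 96.9% of probe sets, and the over-expression difference of KCS38 Ghi.9938.1.S1_x_at larger than that of 97.6%. Of the 9 members, 2 had an SD over the 7 arrays above the median of all probe sets (0.19), these same probe sets.

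**Figure D3:**
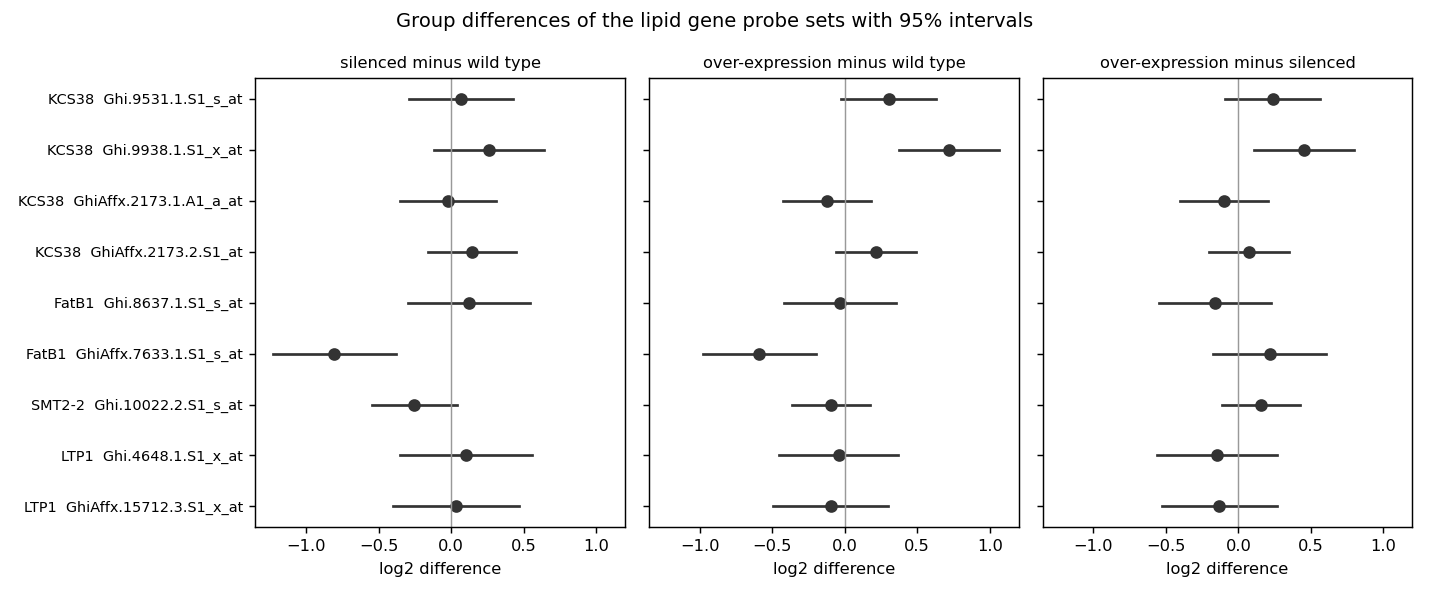
Log2 differences between groups (horizontal axis) for the 9 probe sets, one panel per comparison. Points are limma estimates from all 7 arrays and bars are 95% intervals before any adjustment for the number of probe sets. In the silenced panel FatB1 GhiAffx.7633.1.S1_s_at alone has an interval clear of 0. That FatB1 probe set is also clear of 0 in over-expression minus wild type. KCS38 Ghi.9938.1.S1_x_at is clear of 0 in both over-expression panels.

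Other genes of the same pathways gave modest estimates, some with wide intervals. In silenced ovules against wild type, the 95% interval was -0.29 to 0.32 for FDH. It was -0.83 to 0.36 for DET2 and -0.69 to 0.97 for Lox1, so larger differences are not excluded for those genes. The lists of lipid genes held 14 further probe sets from 13 genes, and 0 of the 14 were called in either direction in any comparison (at an unadjusted p of 0.05 there were 0, 0 and 1). Of these 14, 9 lay above and 5 below wild type in silenced ovules (median 0.06), 10 above and 4 below in over-expression (median 0.09), and 6 above and 8 below in over-expression against silenced ovules (median -0.02). KCS10 and KCS12, which lie at the array's floor, are among these counts and medians, both above in each comparison with wild type and 1 above and 1 below in the third. The other 12 ranged from -0.38 to 0.24.

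In plastid fatty acid synthesis, KASIII starts the acyl chain, while KASII elongates palmitoyl carrier protein, the substrate of FatB, and sad1 desaturates the stearoyl product. These 3 were measured along with the omega-3 desaturase FAD78. KASIII differed from wild type by 0.14 (adjusted p = 0.623) in silenced and 0.09 (adjusted p = 0.779) in over-expressing ovules. The KASII probe set GhiAffx.7701.1.S1_s_at, listed also as KAS2-1, differed by 0.07 and 0.15 (adjusted p = 0.794 and 0.594). The second KASII probe set, GhiAffx.7701.2.A1_a_at, gave the only unadjusted p below 0.05 of these lists, at -0.38 for over-expression against silenced ovules (adjusted p = 0.414). It read 6.01 and 6.37 in silenced ovules and 5.63, 5.80 and 6.01 in over-expression, and the groups met at one shared value. The desaturase sad1 differed by -0.05 and 0.09, and FAD78 by 0.04 and -0.04, with adjusted p between 0.875 and 0.958.

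Of the other elongation enzymes, FDH (listed also as KCS45), a relative of the Arabidopsis FIDDLEHEAD enzyme of the epidermis, was bright and steady. It read 11.25 and 11.27 in wild type, 11.33 and 11.23 in silenced ovules and 11.10, 11.36 and 11.27 in over-expressing ovules, with differences from wild type of 0.02 and -0.02 (adjusted p = 0.963 and 0.958). KCS10 and KCS12 stood at 2.93 to 3.56, at or under the level that 5% of probe sets lay below, so their differences are not interpretable as expression.

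Among sterol genes, SMT1, which acts at the entry of the plant sterol pathway, and SMT2-1, the close relative of SMT2-2, gave differences from wild type of -0.05 and -0.09 in silenced ovules and 0.12 and 0.05 in over-expression (adjusted p between 0.682 and 0.881). DET2, a steroid reductase of brassinosteroid synthesis, gave -0.23 and 0.01 (adjusted p = 0.682 and 0.992). All 3 lay below wild type in silenced ovules, as SMT2-2 did, and above silenced ovules in over-expression, by 0.14 to 0.24, where SMT2-2 differed by 0.16 (47.6% of all probe sets lay below wild type in silenced ovules, and 52.9% above silenced ovules in over-expression). Against wild type in over-expression, all 3 lay above it and SMT2-2 below, at -0.10. None of these differences passed the test. The acyl-CoA binding protein ACBP, a carrier of fatty acid esters in the cytosol, read 10.71 and 10.76 in wild type, 10.77 and 10.11 in silenced ovules and 10.38, 10.46 and 10.40 in over-expressing ovules. Over-expression lay below wild type with no overlap, by -0.32 (-0.77 to 0.12, adjusted p = 0.538), and the silenced arrays spanned both groups. The lipoxygenase Lox1 and the phospholipase D gene pldd differed from wild type by 0.14 and 0.16 in silenced and 0.12 and 0.12 in over-expressing ovules (adjusted p between 0.591 and 0.894).

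**Figure D4:**
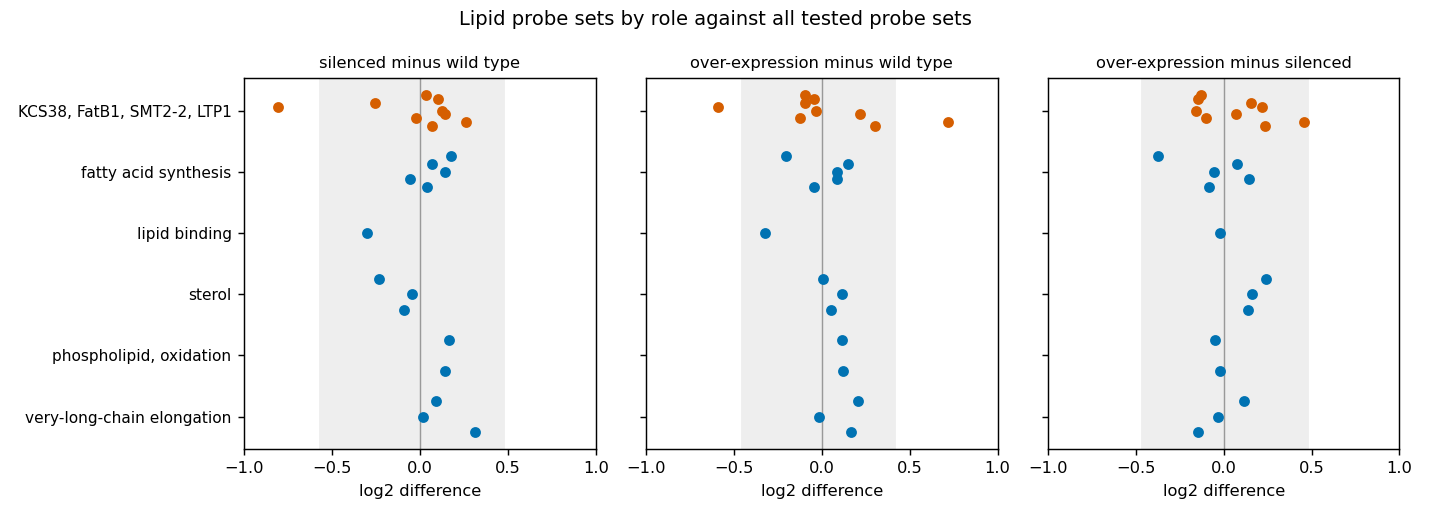
Log2 differences between groups (horizontal axis) of the 9 probe sets of KCS38, FatB1, SMT2-2 and LTP1 (orange) and of 14 further lipid probe sets by role (blue), one panel per comparison. The grey band spans the middle 90% of all 23977 probe sets. FatB1 lies outside the band in the silenced panel, FatB1 and KCS38 in the second panel, and every blue point lies inside it.

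Arrays of 1 genotype differed in different ways from gene to gene. Over-expression replicate 2 was the lowest of its group at 6 of the 9 members, beside 42.7% of all probe sets, namely 3 of KCS38, 1 of FatB1 and both of LTP1. Wild-type replicate 1 was below replicate 2 at 6 of 9, beside 51.2%, and these were all probe sets of KCS38 and LTP1. At SMT2-2 and at FatB1 GhiAffx.7633.1.S1_s_at both of these arrays were instead the highest of their groups. The fibre markers (5 probe sets of E6, HOX3, EXPA1 and CelA1) averaged 7.63 and 8.28 log2 units in wild type, 7.77 and 7.73 in silenced ovules and 8.51, 7.80 and 8.33 in over-expression, so they too were low on those 2 arrays relative to their groups. The embryo markers Lea5-D, Lea14-A and LegA averaged 7.49 and 8.04, 7.81 and 7.81, and 7.22, 8.02 and 7.59 on the same arrays. The part of either list in the values of the lipid genes was not tested. The fibre average joins opposite directions. In silenced ovules against wild type, EXPA1, E6 and HOX3 differed by -0.75, -0.62 and -0.38. The CelA1 probe sets differed by 0.32 and, near the floor, 0.40. Arrays did not overlap at all 5, 2 higher and 3 lower, beside 45.4% of all probe sets. None of the 5 fibre or 3 embryo marker probe sets passed the test in any comparison.

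The named genes whose pattern over the 7 arrays came closest to each member, among probe sets of other named genes with an SD of at least 0.2, are given by Pearson's r as a description only. Each gene was represented by its probe set with the highest mean signal over the 7 arrays, used only to pick 1 probe set. For KCS38 and FatB1 that was not the probe set with the largest group difference. Lists for the other probe sets were not drawn up. The number compared was 182 for KCS38 and FatB1 and 183 for SMT2-2 and LTP1, and all share the same 7 arrays and their normalisation. For KCS38 (Ghi.9531.1.S1_s_at) they were a glutathione transferase listed as GST (0.93) and the genes listed as ACS (0.89) and ACS1 (0.89). For FatB1 (Ghi.8637.1.S1_s_at) they were WD1521 (0.91), KASII at its second probe set (0.75) and susC (0.72). For SMT2-2 they were BC1 (0.94), the S-adenosylmethionine synthetase SAMS (0.92) and ACX (0.90). For LTP1 (Ghi.4648.1.S1_x_at) they were GHMYB38 (0.85), myb109 (0.77), both MYB transcription factors, and a peroxidase (0.76).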

How the data were processed

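The authors deposited log2 intensities per probe set of a 1-colour array. The submitters' processing notes list R 2.7.1, RMA and limma without saying what each did. RMA adjusts background, equalises array distributions and summarises probes, so global shifts are removed and low signals compressed. Its summary step can leave exactly equal values on several arrays; whether it did so here was not tested. The 103 AFFX and 52 RPTR controls among the 24132 probe sets were set apart. Names came from the platform annotation, whose 697 single-gene entries all matched RefSeq (Gossypium_hirsutum_v2.1), 324 with a name beyond a locus number. No coordinates are given, since the array files name no build.

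Limma 3.58.1 (R 4.3.3) fitted the 7 arrays together, a mean for each group, followed by 3 contrasts and eBayes, with residual df of 4 and prior df of 3.01. Two-sided p-values were adjusted by Benjamini-Hochberg within each contrast at a threshold of 0.05, and intervals are 95% and unadjusted. The code was tested on simulated data. Per the labels, arrays within a group are biological replicates, and their number limits precision. The named genes are all members, the lipid lists by symbol and the 3 most similar genes per member. Members and lists were chosen with earlier results of these data known. Alternatives were a replicate block, fitting only the compared groups, trend with robust prior, cyclic loess, median centring, a mean log2 of at least 6, array weights, 1 value per gene and leaving out each array.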

Additional observations from a re-analysis of the deposited data

Results flagged for a closer look

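The reporter control probe set RPTR-Ghi-A06498-1_at, which is outside the cotton genes tested, averaged 5.73 log2 units above wild type in silenced ovules, with both silenced arrays above every other array. Signal outside the main measurement is why it is listed; the cause was not tested.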

How the results depend on the processing

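Of 216 member differences recomputed under 8 alternatives, 204 kept direction and stayed on the same side of the threshold, 11 changed sign and 1 passed, KCS38 Ghi.9938.1.S1_x_at at 0.55 in over-expression against silenced ovules under array weights, where 1 member was thus called, beside 5.04% of all probe sets. Trend with robust prior, fitting only the compared groups and the mean log2 filter leave every difference unchanged, so no sign could change there. The same holds for silenced against wild type under the replicate block and array weights. With 1 value per gene, a gene's value was counted once for each of its probe sets. The 204 thus include values whose direction was fixed in advance. Sign changes were of values near 0 or came from averaging probe sets that disagree. Cyclic loess gave -0.010 for LTP1 GhiAffx.15712.3.S1_x_at in silenced ovules. Median centring gave 0.047 for KCS38 GhiAffx.2173.1.A1_a_at in silenced ovules and, in over-expression against wild type, 0.025 for FatB1 Ghi.8637.1.S1_s_at and 0.017 for LTP1 Ghi.4648.1.S1_x_at, which array weights put at 0.046 and 0.045. With 1 value per gene, KCS38 was 0.11, 0.28 and 0.17 in the 3 comparisons and FatB1 -0.34 in silenced ovules against wild type and 0.029 in over-expression against silenced ovules.

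Leaving out 1 array called no member, and 12 of 189 values changed sign. Dropping an array of the group outside a comparison leaves that comparison's difference unchanged. The 189 thus include values that could not change sign. Where leaving out an array left a group with 1 array, the fit assumed that array to vary like the other groups. That bears on the counts of calls given here too. Ranges for silenced against wild type were -0.090 to 0.23 for KCS38 Ghi.9531.1.S1_s_at, -0.11 to 0.068 for KCS38 GhiAffx.2173.1.A1_a_at, -0.068 to 0.31 for FatB1 Ghi.8637.1.S1_s_at, and -0.10 to 0.31 and -0.17 to 0.24 for the LTP1 probe sets. For over-expression against wild type they were -0.13 to 0.063 for FatB1 Ghi.8637.1.S1_s_at and -0.25 to 0.16 and -0.30 to 0.11 for LTP1; for over-expression against silenced ovules, -0.35 to 0.032 for FatB1 Ghi.8637.1.S1_s_at.

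Over all probe sets, the calls in over-expression against wild type (1) were 0 with the replicate block, with only these groups fitted, with cyclic loess and with array weights, and 0 to 475 when 1 array was left out (475 without wild-type replicate 2). Those in over-expression against silenced ovules (5) were 0 with the replicate block, 12 with trend and robust prior, 9 with median centring and 1209 with array weights. With only these groups fitted they were 238. Leaving out either wild-type array gives that same fit for this comparison, since 1 wild-type array alone adds nothing to the estimate of spread. Those in silenced against wild type (0) were 8 with trend and robust prior and 0 to 73 when 1 array was left out (73 without wild-type replicate 1). The cause was not tested. Same-numbered arrays of different groups had deviations correlating between -0.305 and 0.148, so the numbers were not taken as pairs, and the block called no member.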
